A study of Mus musculus with 15 samples.

Results

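The matricellular and provisional matrix genes were taken by symbol as Postn, Tnc, Fn1, Sparc, Thbs1, Thbs2, Thbs4 and Spp1, which are 8 of the 18929 genes in the deposited count table. All 8 were found and all 8 passed the filter on low counts, which left 15369 genes for testing. RNA was sequenced from bulk dorsal skin of 15 samples in 5 groups of 3. All animals were wild-type (WT) male balb/c mice, aged 4 to 6 weeks at wounding. The acellular groups had a full-thickness wound of 10 mm or 15 mm filled with printed Matrigel beads that held no cells. The HDB groups had the same wounds filled with high cell density beads, in which Matrigel held human umbilical cord mesenchymal stem cells (MSCs), together with acellular beads. Matrigel was therefore shared by all 4 wound groups, and the normal group was skin under normal growth with neither wound nor beads. Skin was taken 4 weeks after implantation according to the sequencing methods, whereas the wound model is described up to day 21.

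Matricellular proteins are secreted into the matrix and bind cells, growth factors and collagen, but do little of its mechanical work. Many are scarce in resting adult skin and are made again during repair, by fibroblasts, keratinocytes, macrophages and platelets. The provisional matrix is the temporary scaffold of fibrin and fibronectin on which cells migrate into a wound before collagen replaces it.

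Each library held 15840500 to 18404200 counts, and levels are given as CPM, each gene's share of a library on a fixed scale, after scaling by TMM, the trimmed mean of M-values. Markers of keratinocytes, fibroblasts and endothelium were detected in all 15 samples, as the labelled tissue requires, with Krt5 at 2225 CPM or more, Col1a1 at 730 CPM or more and Pecam1 at 30.2 CPM or more. The normal samples also carried 49591 to 60209 CPM of a 7-gene skeletal muscle list, against 635 to 35949 CPM in the wound samples. The acellular 15 mm group was the most variable, with correlations of 0.853 to 0.921 between its samples against 0.983 to 0.989 between normal samples. Its replicate 1 held 14541 CPM of hair shaft and inner root sheath genes, and its replicate 3 held 15030 CPM of the 7-gene fibroblast list, against 3512 and 3976 CPM in the other two. In bulk tissue, fewer cells of a type and less RNA per cell cannot be told apart. The labels do not say whether replicates were separate animals, so p-values measure the spread between these samples. That spread was estimated over all 5 groups together and not within the groups compared, although acellular 15 mm samples varied more than normal samples.

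The genes lie on 8 different chromosomes of the GRCm38.p6 build. By RefSeq, Postn spans chr3:54359267-54391041, Tnc chr4:63959785-64047015, Fn1 chr1:71585473-71653280 and Sparc chr11:55394159-55420080. Thbs1 spans chr2:118111876-118127133, Thbs2 chr17:14665500-14694262, Thbs4 chr13:92751586-92794818 and Spp1 chr5:104435111-104441053. RefSeq start windows were found for 6 of the 8 genes, 9 windows of 250 bases in all, and none was used for Fn1 or Thbs1.

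The windows of 3 genes, Postn, Tnc and Sparc, are shown because their genes carry the comparisons below. In the tests against normal skin, Tnc was higher in every wound group. Postn was higher in both HDB groups and, just past the threshold, in acellular 15 mm skin. Sparc was lower in both acellular groups, and its lower values in HDB skin did not pass. Each window runs 5′ to 3′ on the strand of its gene and ends at the base before a RefSeq start. Capitals mark TATATAA, the letters of a TATA box. The Postn window shown is chr3:54360857-54361106 on the + strand, the Tnc window chr4:64046937-64047186 on the - strand and the Sparc window chr11:55420081-55420330 on the - strand. Postn and Tnc each have another RefSeq start window, chr3:54359017-54359266 and chr4:64047016-64047265, and neither of these holds TATATAA.
Postn: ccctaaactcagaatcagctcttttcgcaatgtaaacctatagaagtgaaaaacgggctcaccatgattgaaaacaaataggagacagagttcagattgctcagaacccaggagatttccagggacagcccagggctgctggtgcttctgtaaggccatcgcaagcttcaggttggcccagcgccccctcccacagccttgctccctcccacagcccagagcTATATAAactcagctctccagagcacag
Tnc: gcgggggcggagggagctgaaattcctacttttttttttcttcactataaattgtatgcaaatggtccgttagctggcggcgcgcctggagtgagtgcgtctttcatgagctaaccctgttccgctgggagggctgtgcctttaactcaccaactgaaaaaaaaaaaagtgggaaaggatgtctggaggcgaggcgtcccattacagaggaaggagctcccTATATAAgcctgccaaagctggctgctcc
Sparc: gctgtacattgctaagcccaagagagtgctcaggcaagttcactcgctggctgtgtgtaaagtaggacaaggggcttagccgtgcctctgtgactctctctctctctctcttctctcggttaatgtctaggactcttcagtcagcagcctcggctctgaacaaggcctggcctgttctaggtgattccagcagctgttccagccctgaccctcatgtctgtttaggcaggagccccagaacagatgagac
In the windows shown, the motif lay 28 to 22 bases before that RefSeq start of Postn and 29 to 23 bases before that of Tnc. It was in 2 of the 9 windows and in 3.04% of 32851 mouse start windows of the same length, on either strand. The Sparc window does not hold these letters. An AP-1 site (TGANTCA, 6.75% of windows) and a CArG box (1.47%) were in none of the 9 windows, and a TEAD site (GGAATG, 12.6%) occurred in the Thbs4 window alone, with 2 matches that share 1 base. Windows and motifs were picked after the sequences and levels had been viewed, and a match is only a description of the letters.

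Levels of the 8 genes spanned a wide range in normal skin. Per kilobase of transcript, Sparc stood at 1738 CPM per kb ± 826 (SD, n = 3), Postn at 125 ± 21.6, Fn1 at 47.2 ± 23.1 and Thbs2 at 19.6 ± 4.70. Thbs1 followed at 9.04 ± 2.70, Spp1 at 7.67 ± 1.02, Thbs4 at 6.04 ± 1.41 and Tnc, the lowest, at 1.47 ± 0.355 CPM per kb. In HDB 15 mm skin the group means again ran from Sparc (1195 ± 338 CPM per kb) and Postn (394 ± 90.8) down to Tnc. Together the 8 genes took 0.260% to 0.654% of counts in normal samples and 0.167% to 0.649% in wound samples, so their summed share overlapped while its make-up differed.

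**Figure D1:**
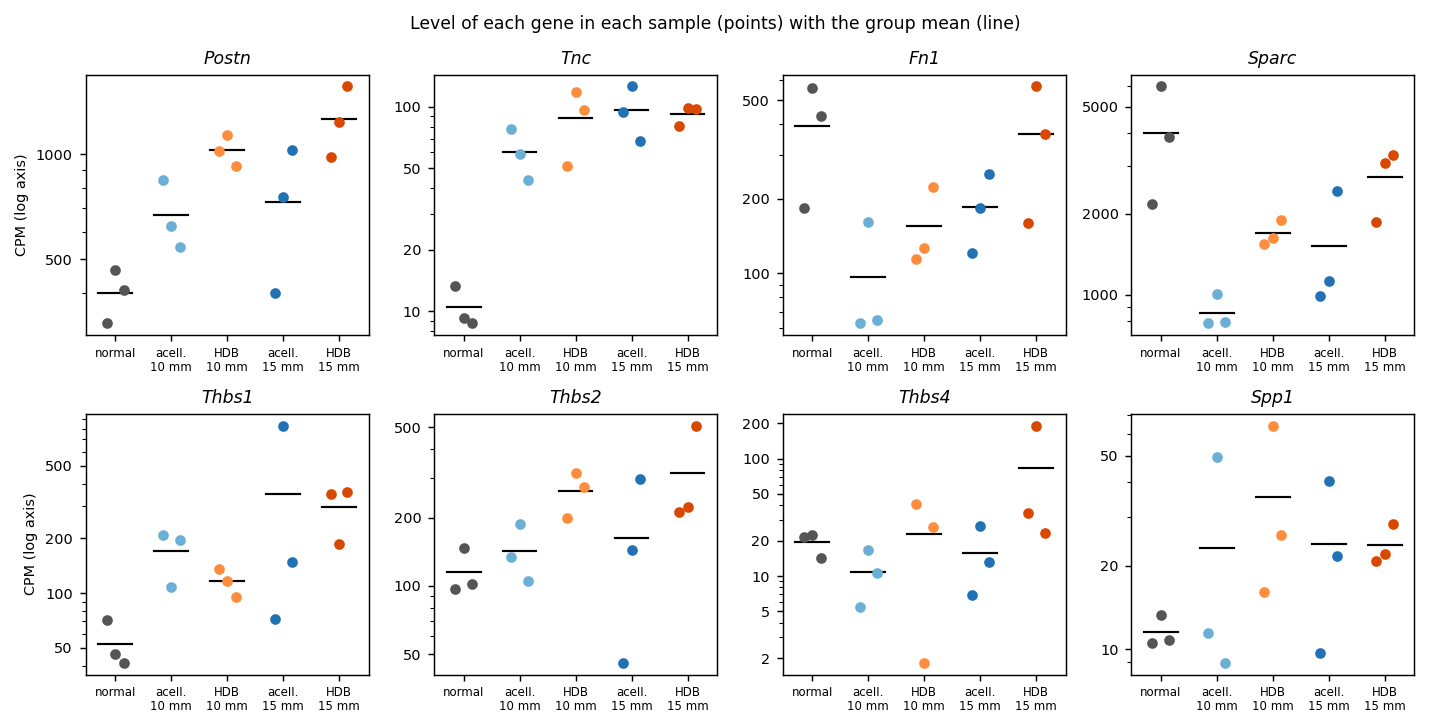
TMM-scaled CPM of the 8 genes on log axes, with 1 point per sample in the 5 groups and a line at the group mean. Every Tnc point of the wound groups lies above every normal point, between 44.0 and 126 CPM against 8.72 to 13.3 CPM, whereas the lowest group mean of Sparc is that of acellular 10 mm skin.

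The first question was how healed skin of each wound group differed from normal skin. Tnc rose in all 4 wound groups and Postn in both HDB groups and, just past the threshold, in acellular 15 mm skin, Thbs1 rose in the acellular 15 mm group, Sparc fell in both acellular groups and Fn1 in acellular 10 mm skin. In acellular 10 mm skin 3 of the 8 genes passed an adjusted p of 0.05, 1 higher and 2 lower, where 20.3% of all genes tested passed, 9.77% higher and 10.6% lower. In acellular 15 mm skin 4 passed, 3 higher and 1 lower, against 30.2% of all genes, 17.6% higher and 12.6% lower. In HDB 10 mm skin 2 passed, both higher, against 12.3%, with 6.1% of all genes higher and 6.23% lower. In HDB 15 mm skin the same 2 genes passed, Postn and Tnc, against 5.18%, with 2.67% higher and 2.51% lower. These 4 comparisons share the 3 normal samples and are not independent of each other. The median log2 fold change of the 8 genes was 0.52, 0.68, 1.16 and 1.55 in that order, against 0.03, 0.06, 0.02 and 0.02 over all genes. All tests are edgeR quasi-likelihood tests with Benjamini-Hochberg adjustment over all genes tested. Scaling by library size alone moved the median of all genes against normal skin up to between 0.18 and 0.26 and reversed the sign of 1 of these values, that of Fn1 in HDB 15 mm skin.

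Tnc encodes tenascin-C, a hexameric glycoprotein that is nearly absent from resting dermis and appears under migrating epidermis and in granulation tissue. Its level was 13.3, 9.31 and 8.72 CPM in the normal samples. It was 78.2, 58.9 and 44.0 CPM in acellular 10 mm skin and 94.1, 126 and 68.2 CPM at 15 mm under acellular beads. HDB wounds held 51.7, 118 and 96.7 CPM at 10 mm and 80.4, 99.3 and 97.7 CPM at 15 mm. No wound sample overlapped the normal samples, whereas the ranges of neighbouring wound groups overlapped throughout. The fold change over normal skin was 5.77 in acellular 10 mm (log2 2.53, SE 0.33, edgeR adjusted p 0.00293) and 9.19 in acellular 15 mm skin (log2 3.20, SE 0.34, adjusted p 0.00101). In HDB wounds it was 8.49 at 10 mm (log2 3.09, SE 0.34, adjusted p 0.00108) and 8.84 at 15 mm (log2 3.14, SE 0.34, adjusted p 0.00214). Tnc passed in all 4 comparisons under each of the 14 other settings in which a fit was made, which include leaving out each library.

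Postn encodes periostin, a fibroblast protein that binds collagen, tenascin-C and integrins. Normal samples held 328, 466 and 408 CPM. Acellular samples held 843, 623 and 543 CPM at 10 mm and 400, 756 and 1031 CPM at 15 mm. HDB samples held 1023, 1137 and 924 CPM at 10 mm and 986, 1238 and 1566 CPM at 15 mm. All wound samples except 1 acellular 15 mm sample lay above the normal range. Postn in HDB wounds was 2.57-fold higher than normal at 10 mm (log2 1.36, SE 0.31, edgeR adjusted p 0.0213) and 3.15-fold higher at 15 mm (log2 1.66, SE 0.31, adjusted p 0.0216). In acellular 15 mm skin it was 1.82-fold higher (adjusted p 0.0495), but this call stood in 3 of the 14 settings (range 0.0104 to 0.168). It was lost with samples blocked by replicate number (adjusted p 0.0712), without the filter (0.0573), with RLE scaling (0.0528), with the length trend removed (0.0506) and with only the groups compared (0.148). In acellular 10 mm skin the log2 fold change was 0.74 and did not pass (adjusted p 0.0964). The call in acellular 15 mm skin stood in 1 of the 6 fits without 1 library, and each HDB call also in 1 of 6, with log2 fold changes between 0.53 and 1.81 over the 3 comparisons.

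Thbs1 encodes thrombospondin-1, released by platelets and made by wound keratinocytes and macrophages, which restrains angiogenesis and activates TGF-beta. It was 70.9, 46.1 and 41.5 CPM in normal skin. It was 208, 108 and 197 CPM in acellular 10 mm and 135, 117 and 95.7 CPM in HDB 10 mm skin. At 15 mm it was 72.6, 832 and 149 CPM in acellular and 349, 186 and 358 CPM in HDB skin. Every wound sample lay above the highest normal sample, and acellular 15 mm replicate 2 stood far above all others. Against normal skin the acellular 15 mm difference passed (log2 2.73, SE 0.70, edgeR adjusted p 0.0150), and without its replicate 2 it dropped to 1.07 and did not pass (adjusted p 0.0575). The call was also lost without normal replicate 2 (0.0528), without normal replicate 3 (0.0600) and with only the groups compared (0.0970), and stood in 10 of the 14 settings. In HDB 15 mm skin the log2 fold change was 2.49 and did not pass (adjusted p 0.0557), but it passed in 5 of the 14 settings, DESeq2 among them (range 0.00266 to 0.183). In acellular 10 mm skin it was 1.69 (adjusted p 0.0890) and passed in 2, DESeq2 included (range 0.00739 to 0.222). In HDB 10 mm skin it was 1.14 (adjusted p 0.262).

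Sparc encodes osteonectin, a collagen-binding protein that fibroblasts make while they lay down and cross-link collagen. It was the most abundant of the 8 genes, at 2165, 5959 and 3869 CPM in normal skin. It was 781, 1002 and 787 CPM in acellular 10 mm and 990, 1120 and 2427 CPM in acellular 15 mm skin. HDB samples held 1547, 1627 and 1893 CPM at 10 mm and 1859, 3082 and 3301 CPM at 15 mm. All acellular 10 mm and HDB 10 mm samples lay below the normal range, and both 15 mm groups overlapped it. Sparc was 4.67-fold lower than normal in acellular 10 mm (log2 -2.22, SE 0.42, edgeR adjusted p 0.00745) and 2.64-fold lower in acellular 15 mm skin (log2 -1.40, SE 0.40, adjusted p 0.0233). In HDB skin the values were -1.24 at 10 mm (adjusted p 0.0611) and -0.54 at 15 mm (adjusted p 0.401), neither past the threshold with edgeR. DESeq2 called the 10 mm fall (adjusted p 0.0125, range 0.0125 to 0.229 over the 14 settings). The 10 mm acellular call stood in all 6 fits without 1 library and the 15 mm call in 2 of 6, where the log2 fold change ran from -1.92 to -0.99. The 15 mm call was also lost with only the groups compared (adjusted p 0.142) and stood in 9 of the 14 settings.

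Fn1 encodes fibronectin, the main adhesive protein of the provisional matrix. Normal samples held 184, 562 and 433 CPM, with replicate 1 the lowest. Acellular samples held 62.9, 162 and 65.1 CPM at 10 mm and 121, 184 and 252 CPM at 15 mm. HDB samples held 115, 127 and 223 CPM at 10 mm and 160, 568 and 364 CPM at 15 mm. Only the acellular 10 mm samples lay wholly below normal skin, 4.07-fold lower on the fitted scale (log2 -2.02, SE 0.55, edgeR adjusted p 0.0263). That call stood in 2 of 6 fits without 1 library, with log2 values from -2.62 to -1.69. In acellular 15 mm skin the log2 fold change of Fn1 was -1.08 and did not pass (edgeR adjusted p 0.141, range 0.0403 to 0.388 over the 14 settings, of which 1 called it).

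Thbs2 and Thbs4 encode thrombospondin-2, a fibroblast product that limits vessel growth and shapes collagen fibrils, and thrombospondin-4, made by muscle, tendon and vessels. Thbs2 was 97.0, 147 and 102 CPM in normal skin, 199, 314 and 271 CPM in HDB 10 mm skin and 212, 223 and 507 CPM in HDB 15 mm skin. All HDB samples lay above normal, but the log2 fold changes of 1.18 and 1.45 did not pass (edgeR adjusted p 0.152 and 0.115); DESeq2 called the 15 mm rise (0.0467, range 0.0345 to 0.431 over the settings). In acellular skin Thbs2 was 134, 187 and 105 CPM at 10 mm and 46.0, 144 and 296 CPM at 15 mm, which overlapped normal skin. Thbs4 was 21.4, 22.4 and 14.2 CPM in normal skin and ran from 1.83 to 40.9 CPM in the wound samples other than HDB 15 mm. The HDB 15 mm samples held 34.6, 191 and 23.3 CPM of Thbs4, all above normal, with replicate 2 far from the other two. Its log2 fold change over normal skin was 2.10 (adjusted p 0.183), and 0.58 without that replicate.

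Spp1 encodes osteopontin, a phosphoprotein that activated macrophages secrete and that binds CD44 and integrins. It was 10.5, 13.3 and 10.8 CPM in normal skin, and each wound group held 1 or more samples above 20 CPM. The highest sample of acellular 10 mm skin held 49.4 CPM beside 11.4 and 8.94 CPM, and that of HDB 10 mm skin 64.1 CPM beside 16.1 and 25.9 CPM. HDB 15 mm samples were close together at 20.9, 22.0 and 28.3 CPM. Log2 fold changes over normal skin were 1.01, 1.05, 1.61 and 1.04 under acellular beads (10 mm, then 15 mm) and HDB (10 mm, then 15 mm), and none passed (edgeR adjusted p 0.128 to 0.340). Without acellular 10 mm replicate 2, its high sample, the acellular 10 mm value changed sign to -0.18.

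Separation from normal skin was common among all genes. The 3 samples lay above normal for 3, 2, 5 and 6 of the 8 genes in the same 4 groups, where 29.1%, 22.5%, 25.7% and 23.8% of all genes did so. They lay below normal for 2, 0, 1 and 0 genes, against 27.2%, 21.5%, 23.4% and 22.6%.

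**Figure D2:**
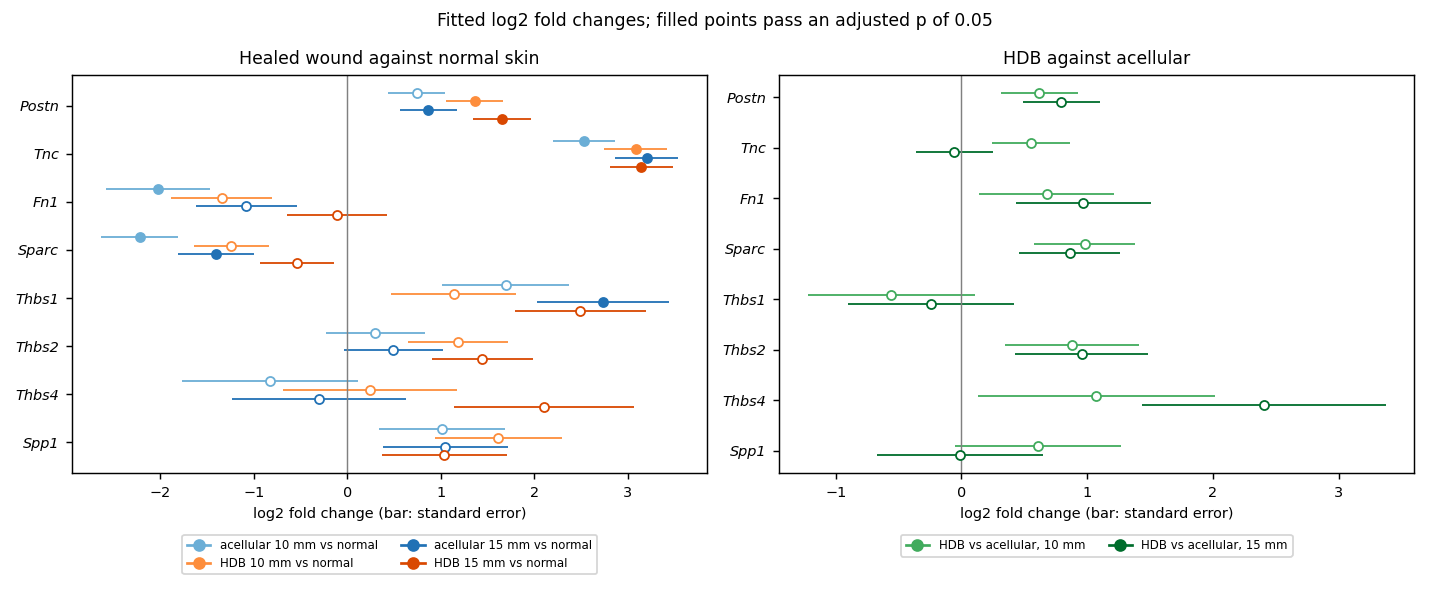
Fitted log2 fold change with its standard error for each gene, in the 4 healed wound groups against normal skin and in HDB against acellular skin at each wound size. Filled points have an adjusted p under 0.05: 11 points are filled against normal skin and 0 in the HDB against acellular comparisons.

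The second question was whether MSC-laden beads changed these genes relative to acellular beads. None of the 8 passed at 10 mm, where 0% of all genes passed, at 15 mm, where 2.93% passed (0.579% higher and 2.35% lower), or over both sizes, where 0% passed. At an unadjusted p under 0.05 there were 1, 2 and 5 of the 8 genes, and 543, 3567 and 2428 of all genes tested. DESeq2 called none of the 8 at 10 mm and over both sizes, and 1 at 15 mm, Thbs4 (adjusted p 0.0479, range 0.0479 to 0.623 over the 14 settings); over all genes it called 15, 1792 and 223 at 10 mm, at 15 mm and over both. The fitted value was higher in HDB skin for 7 of 8 genes at 10 mm and for 5 of 8 at 15 mm. The median log2 difference of the 8 genes was 0.65 and 0.83, against -0.01 and 0.00 over all genes.

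Postn, Sparc and Thbs2 were the genes whose 3 HDB 10 mm samples all lay above the 3 acellular 10 mm samples, as did 4.53% of all genes. None of the 8 lay wholly below, as 6.47% of all genes did. At 15 mm no gene of the 8 was separated in this way, against 8.55% of all genes above and 11.7% below. Acellular replicate 3 lay among the HDB samples for each of these 3 genes. Same-numbered 15 mm samples deviated together across genes, but this pairing was picked from these data and not from the labels. No other pair of groups had correlations over 0.1 in all 3 replicates. Within all 3 same-numbered 15 mm pairs HDB was the higher for 5 of the 8 genes, Postn, Fn1, Sparc, Thbs2 and Thbs4, as for 19.3% of all genes. The log2 difference within pairs was 0.60 to 1.30 for Postn, 0.44 to 1.46 for Sparc and at least 0.63 for Thbs2. With the replicate block in the edgeR fit none of the 8 passed, with an adjusted p of 0.170, 0.178 and 0.222 for these 3 genes. Over both sizes Sparc was 1.89-fold higher in HDB skin (log2 0.92, SE 0.28), Thbs2 1.89-fold (log2 0.92, SE 0.37) and Postn 1.63-fold (log2 0.71, SE 0.22). Their adjusted p from edgeR was 0.261, 0.284 and 0.261. The exact two-sided permutation test, with labels exchanged within a wound size and no pairing, gave an unadjusted p of 0.01 for Sparc, 0.025 for Thbs2 and 0.01 for Postn over 400 arrangements, of which the smallest possible p is 0.005. The same test over all 8 genes gave 0.075 for Fn1, 0.235 for Thbs4, 0.36 for Tnc, 0.395 for Spp1 and 0.975 for Thbs1, none of them adjusted for the 8 tests. Within a single size, 3 against 3 samples cannot go below 0.1.

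Leaving out acellular 15 mm replicate 3, the sample with the high fibroblast list, brought 3 calls at 15 mm: Postn at 1.13 (edgeR adjusted p 0.0341), Sparc at 1.38 (0.0374) and Thbs2 at 1.72 (0.0449). Calls rose over the whole table in that fit, to 14.9% of all genes tested from 2.93%. Over the 14 settings the adjusted p of these genes at 15 mm ran up to 0.491, 0.508 and 0.709. Without that library Sparc also passed over both sizes at 1.18 (adjusted p 0.0486, up to 0.495 over the settings), as did 1.47% of all genes, against 0% with the library kept.

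Of the other members, Tnc gave a log2 difference of 0.56 at 10 mm and -0.06 at 15 mm between HDB and acellular skin, and Fn1 0.68 and 0.97. When a library was left out, Fn1 ran from 0.32 to 1.27 at 10 mm and from 0.50 to 1.33 at 15 mm. Thbs1 gave -0.56 and -0.24, and the 15 mm value became 1.42 without acellular replicate 2. Thbs4 gave 1.07 at 10 mm and 2.40 at 15 mm, which ran from 0.37 to 1.64 and from 0.88 to 3.04 when a library was left out. Spp1 gave 0.61 and -0.01. In 15 mm skin long genes ran higher than short genes in acellular samples, by 0.155 to 0.345 log2 units, and lower in HDB samples, by -0.392 to -0.127. With this length trend removed, 0 of all genes passed at 15 mm in place of 450, and Tnc, one of the longest transcripts here, went from -0.06 to 0.22. The difference between the 15 mm and the 10 mm effect passed for none of the 8 genes, nor for any gene tested (0%), with 0 of the 8 and 2063 of all genes at an unadjusted p under 0.05; DESeq2 called 608 genes there, none of the 8.

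Wound size was the third comparison. In acellular skin 8 of 8 genes had a higher fitted value at 15 mm than at 10 mm, and in HDB skin 7 of 8, with medians of 0.60 and 0.50 log2 units against 0.06 and 0.02 over all genes. Leaving out 1 library turned the sign of Postn, Thbs1, Thbs2, Thbs4 and Spp1 in acellular skin, and of Tnc, Thbs2 and Spp1 in HDB skin. None of the 8 passed in edgeR, where 0% of all genes passed, and 0 and 1 of the 8 had an unadjusted p under 0.05, beside 2684 and 1896 of all genes. DESeq2 called 728 and 382 genes, none of the 8. The samples of the 2 sizes were separated for none of the 8 genes in acellular skin, against 8.39% of all genes higher and 8.09% lower at 15 mm. In HDB skin they were separated for Thbs1, higher at 15 mm, against 11% of all genes higher and 11.8% lower. The 1 gene with an unadjusted p under 0.05 was Fn1, with a log2 difference of 1.23 in HDB skin (adjusted p 0.386).

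Markers of the cells that make these proteins moved with several of the comparisons. The summed fibroblast list (Col1a1, Pdgfra, Col3a1, Col1a2, Dpt, Lum, Dcn) was 3601 to 5557 CPM in acellular 10 mm skin and 9143 to 12099 CPM in HDB 10 mm skin. It was 8448 to 18611 CPM in HDB 15 mm skin and 7515 to 24619 CPM in normal skin. With group means removed, the correlation across the 15 samples between Sparc and this list was 0.99, with Postn 0.70, Thbs2 0.76 and Fn1 0.78; these samples share libraries and scaling, and the values are descriptions. All 7 list genes were detected in every group, Pdgfra at 25.1 CPM or more. Most of the sum is collagen: in HDB 10 mm skin its median was 10138 CPM, with Col1a1, Col1a2 and Col3a1 at medians of 2294, 3129 and 3717 CPM. The median of Pdgfra was higher in HDB 10 mm than in normal skin, 66.0 against 52.3 CPM. The other list genes and the sum had the lower median in HDB 10 mm skin. The part of fibroblast content in the HDB against acellular values was not tested.

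Ratios within a sample do not depend on the scaling between samples. Per 100 counts of the 7 fibroblast genes, Sparc took 24.2 to 28.8 counts in normal skin. Under acellular beads it took 18.04 to 21.7 counts at 10 mm and from 16.1 up to 28.2 at 15 mm. Under HDB it took 15.6 to 16.9 counts at 10 mm and 17.7 to 22.0 at 15 mm. Every HDB 10 mm sample lay below every acellular 10 mm sample on this ratio, the opposite of their order in CPM. Postn took 1.89 to 4.37 counts in normal skin and 6.86 to 23.4 in wound skin, and the 2 ranges did not overlap. Thbs2 took 0.598 to 1.29 in normal skin against 1.31 to 3.73 in wounds, and Tnc 0.0379 to 0.178 against 0.454 to 3.17. Per count of Sparc, Postn gave 0.0782 to 0.152 counts in normal skin and 0.402 to 1.08 in wound skin. In HDB 10 mm skin Postn took 7.64 to 11.2 counts per 100, against 11.2 to 23.4 in acellular 10 mm skin, so relative to the fibroblast list it was not the higher of these groups. Most counts of the fibroblast list are those of its collagen genes. The ratios were chosen after the levels had been seen and carry no test.

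**Figure D3:**
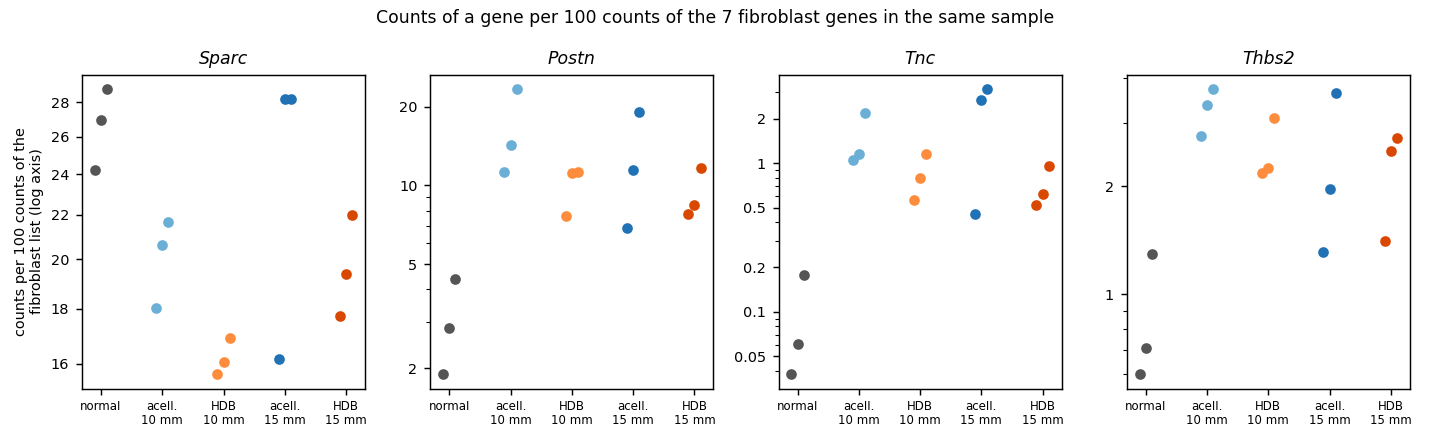
Counts of Sparc, Postn, Tnc and Thbs2 per 100 counts of the 7 fibroblast genes of the same sample, on log axes, with the lowest, median and highest sample of each group drawn from left to right. Postn in normal skin lies at 1.89 to 4.37, below every wound sample, and Sparc stays between 15.6 and 28.8 in all 5 groups.

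Other lists moved with these genes too, and with the rest. With group means removed, Sparc had a correlation of 0.80 with the platelet and 0.72 with the macrophage list. Thbs2 had 0.76 with the macrophage list, as with fibroblasts, and -0.80 with the list of hair shaft and inner root sheath genes. On the same scale Spp1 followed the macrophage list (Adgre1, Cd68, Csf1r, Mrc1, Lyz2, C1qa) with a correlation of 0.79, and Fn1 followed it with 0.82 and the platelet list with 0.89. Acellular 10 mm replicate 2, the high Spp1 sample of its group, held 963 CPM of the macrophage list against 159 and 172 CPM in the other two. Normal samples held 440 to 1026 CPM of the macrophage list with the lowest group mean of Spp1, so across groups the pair did not move together. Thbs4 followed the skeletal muscle and the endothelium lists alike, with 0.77 each. The HDB 15 mm sample with 191 CPM had 25751 CPM of the muscle list against 12629 and 8228 CPM, and 340 CPM of the endothelium list against 194 and 121 CPM. The HDB 10 mm sample with 1.83 CPM of Thbs4 had 681 CPM of the muscle list, against 35949 and 8335 CPM, and 109 CPM of the endothelium list, against 208 and 192 CPM. Thbs4 was nonetheless within 14.2 to 22.4 CPM in normal skin, which held more of both lists than any wound sample. With the tendon list (Tnmd, Scx, Mkx, Fmod) Thbs4 had 0.40, and 0.58 over the 15 samples with group means kept. This list summed to 51.7 to 90.6 CPM in HDB 15 mm skin, 52.3 to 66.0 CPM in normal skin and 25.1 to 57.9 CPM in the other wounds, with Tnmd and Scx at 25.6 CPM or less. Thbs1 followed basal keratinocyte markers with 0.78, and their sum was 5177 to 7120 CPM in normal skin and 5762 to 18220 CPM in wounds. Tnc followed the wound keratins Krt6a, Krt16, Krt17 and Krt6b with 0.68, and with 0.81 over the 15 samples without removal of group means. The sum of these keratins was 390 to 527 CPM in normal skin and 735 to 3847 CPM in wounds, which like Tnc did not overlap. The platelet list summed to 5.25 to 33.5 CPM, with its markers Pf4 and Ppbp at 26.3 CPM or less in every sample, and the cartilage and bone list, Acan and Col2a1 included, at 5.50 CPM or less. The part of these cell types in the values above was not tested.

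**Figure D4:**
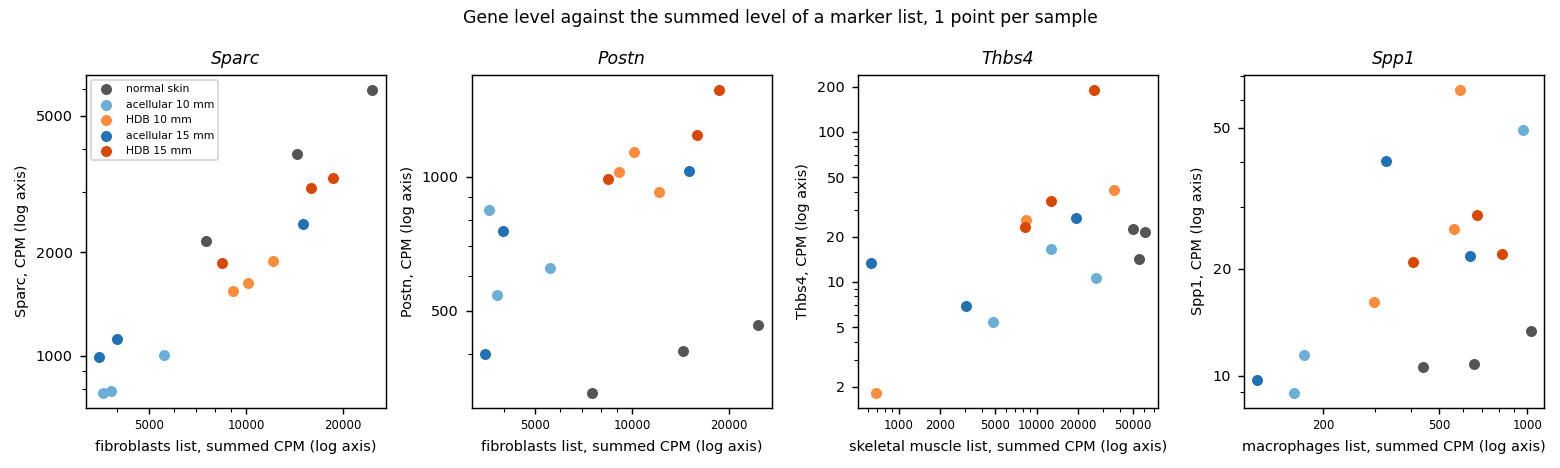
CPM of a gene against the summed CPM of a marker list on log axes, with 1 point per sample coloured by group. Sparc follows the fibroblast list across all groups, the 3 normal samples lie low for Postn at 328 to 466 CPM, and Thbs4 and Spp1 follow muscle and macrophage lists among wound samples but not across to normal skin.

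The 8 genes also differed in how they followed each other. With group means removed, Postn and Thbs2 correlated at 0.87 and Fn1 and Sparc at 0.82 across the 15 samples, whereas Postn and Tnc, both high in wounds, correlated at 0.02. The genes with the highest Pearson correlation of log2 CPM over the 15 samples were Dcn (0.98), Cpa3 (0.97) and Pcolce (0.97) for Sparc. They were Lrrc15 (0.96), Car12 (0.95) and Irx4 (0.95) for Tnc, and S1pr2 (0.91), Rnf112 (0.91) and Mdk (0.91) for Postn. For Fn1 they were Cd248, Stab1 and Mrc1 (0.94 each). For Thbs1, Ptpru (0.96) and Tceal3 (0.93) were among them, and for Thbs2 they were F2r (0.96), Plpp5 (0.95) and Masp1 (0.94). Bmp5, Pnmal2 and Rrad led for Thbs4 with 0.85 to 0.86, and Plaur, Klra3 and Clec4d for Spp1 with 0.90 to 0.92.

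The wider pathway was read from 3 lists. No gene of the 22 other matricellular genes, of the 10 tested among 13 provisional matrix genes or of the 19 receptors and binding partners passed in any HDB against acellular or size comparison with edgeR. At an unadjusted p under 0.05 in HDB against acellular skin there were 4 of these 51 genes (10 mm), 11 (15 mm) and 16 (both), beside 3.53%, 23.2% and 15.8% of all genes. Between sizes there were 13 in acellular and 9 in HDB skin, beside 17.5% and 12.3% of all genes. Against normal skin, other matricellular genes passed in falls: 4 of 22 in acellular 10 mm skin, led by the collagen-binding Aebp1 (log2 -2.08), Sparcl1 (-1.73), a relative of Sparc, and the fibulin Fbln1 (-1.11), where 10.6% of all genes fell. In acellular 15 mm skin 5 of 22 fell, led by Tgfbi (-1.55), a relative of Postn, and by Ccn1 (-1.43) and Ccn2 (-1.40), where 12.6% of all genes fell, and none rose in either group. In HDB 10 mm skin Ccn4 rose (1.65) and Smoc2 fell (-1.11), beside 6.1% of all genes higher and 6.23% lower, and in HDB 15 mm skin none of the 22 passed, with 3 at an unadjusted p under 0.05, as had 26.9% of all genes. The list medians were -0.84, -0.67, -0.74 and 0.14, against 0.52, 0.68, 1.16 and 1.55 for the 8 genes.

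Among provisional matrix genes, F13a1, the A subunit of the factor that cross-links fibrin, fell under acellular beads at 10 mm (-3.48) and 15 mm (-2.36) and under HDB at 10 mm (-2.74). Plau, the urokinase plasminogen activator, also fell in acellular 10 mm skin (-0.80). Vcan, the hyaluronan-binding proteoglycan versican, rose in acellular 15 mm skin (1.86), where Plat, the tissue plasminogen activator, rose too (0.83), as it did in HDB 15 mm skin (0.89). The fibrinogen chains Fgb and Fgg did not pass the filter on low counts. The list counts were 2 lower in acellular 10 mm, 2 higher and 1 lower in acellular 15 mm skin, of 10 genes, near the 20.3% and 30.2% of all genes that passed there. Under HDB they were 1 lower at 10 mm, where 6.23% of all genes fell, and 1 higher at 15 mm, where 2.67% rose.

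Receptors gave 5 rises and 3 falls of 19 in acellular 10 mm skin, where 9.77% of all genes rose and 10.6% fell, and 4 rises in acellular 15 mm skin, where 17.6% rose. Under HDB there were 3 rises at 10 mm and 2 at 15 mm, against 6.1% and 2.67% of all genes, and none of these 3 groups had a fall. Cd44, a receptor of osteopontin and hyaluronan, rose in all 4 groups, by 1.40, 1.43, 1.41 and 0.90 log2 units. Sdc1, a heparan sulphate proteoglycan of keratinocytes, rose in all 4 as well, by 1.56, 1.73, 1.08 and 1.55. Itgav, the alpha-v integrin chain that binds periostin, osteopontin and fibronectin, rose in acellular 10 mm (0.39), acellular 15 mm (0.36) and HDB 10 mm wounds (0.45). Notch1 rose in both acellular groups (0.82 and 1.42). The 3 falls that passed in acellular 10 mm skin were those of Cd36 (-1.47), a thrombospondin receptor, Itga9 (-1.24), an integrin chain that binds tenascin-C and osteopontin, and Itgb5 (-0.49). All these calls have a Benjamini-Hochberg adjusted p under 0.05 in the edgeR fit, over all genes tested.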

How the data were processed

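Bulk skin RNA of 15 samples was sequenced by the authors. The deposited table holds expected counts per gene, estimated by the authors; HISAT2 2.0.4, Bowtie2 2.2.5, RSEM 1.2.12 and GRCm38.p6 stand in the submitters' processing notes, whose roles are not given in the sources used here. The genes and lists were chosen with earlier results of these data known.

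Expected counts were rounded, filtered with filterByExpr, TMM-scaled and tested with edgeR 4.0.16 (R 4.3.3) in 1 quasi-likelihood fit of the 5 group means over 15369 genes, adjusted by Benjamini-Hochberg, at a threshold of 0.05. The study's own tool, DESeq2 (version 1.42.0 here), other scalings and filters, a replicate block and leaving out each library were alternatives. The permutation test used log2 CPM with a prior count of 2. Per-kilobase levels used the longest protein-coding transcript of GENCODE release M21. Scripts were tested on simulated data. Named genes were the 8 members, up to 3 called rises and 3 called falls per list and comparison, list sums with the first 2 markers, and the 3 most correlated genes of each member, of which 1 is not reported here.

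The reported tests use no replicate block. Replicate numbers were taken to pair acellular 15 mm and HDB 15 mm samples, a hint from the data and not the labels, so within-pair and blocked values are given there: same-numbered samples deviated together (r 0.397, 0.167 and 0.183). Same-numbered acellular 10 mm and HDB 10 mm samples did not (r -0.312, 0.0348 and -0.0780). No 2 replicates agreed within sampling noise (lowest chi-square per degree of freedom 20.4). Whether counting used strand is not given in the sources used here.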

Additional observations from a re-analysis of the deposited data

How the results depend on the processing

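Of the values recomputed under the alternatives, 1109 kept direction and side of the threshold, 34 lost a call, 20 gained one and 53 changed sign, none of the latter a call. Length trend removal and library size scaling were chosen after seeing the data; the cause of the changes was not tested.

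Of the 8 genes, DESeq2 called 1 in HDB against acellular 15 mm (12.4% of all genes) and 4 in HDB 15 mm against normal (14.9%), where Thbs1 and Thbs2 joined Postn and Tnc. Fitting only the groups compared called, against normal, 5 and 1 under acellular beads (10 mm, 15 mm) and 4 and 5 under HDB, beside 42%, 6.57%, 20.2% and 22.9% of all genes. Without 1 library the calls ran from 0 to 3 in HDB against acellular 15 mm (3 without acellular replicate 3), beside 0% to 14.9% of all genes. Over both sizes they ran from 0 to 1, beside 0% to 1.47%. Against normal they ran from 1 to 3 in acellular 15 mm skin, beside 14.8% to 37.3% of all genes. Under HDB they ran from 1 to 2 at 10 mm, beside 0.501% to 17.5%, and from 1 to 3 at 15 mm, beside 0.218% to 8.61%. Over all genes, HDB against acellular 15 mm gave 450 calls, 1792 with DESeq2, 199 without the filter, 179 with the replicate block and 0 with only the groups compared or the length trend removed. It also gave 886 with library size scaling and 0 to 2322 without 1 library.

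The replicate block reversed Spp1 in HDB against acellular 15 mm (0.28) and Thbs2 between sizes in acellular skin (-0.047), and ended the pass of Postn in acellular 15 mm against normal (adjusted p 0.0712); it changed no other call of the 8 genes in the counts above. With the length trend removed, Fn1 in HDB 15 mm against normal became 0.041 and Tnc in HDB against acellular 15 mm 0.22. With the block as well, these became 0.022 and 0.27, Thbs1 in the latter 0.16 and Thbs2 between sizes in acellular skin -0.20, and Fn1 in acellular 15 mm against normal gained a call (-1.15, adjusted p 0.0403). Library size scaling gave Fn1 in HDB 15 mm against normal 0.045 and the Thbs2 interaction -0.043.

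Leaving out 1 library changed the sign of these log2 values, given as ranges. In HDB against acellular skin they were Spp1 -0.13 to 1.80 at 10 mm, and Tnc -0.25 to 0.19, Thbs1 -0.72 to 1.42 and Spp1 -0.39 to 0.60 at 15 mm. Over both sizes they were Thbs1 -0.64 to 0.43 and Spp1 -0.067 to 0.89. In the interaction they were Postn -0.12 to 0.51, Fn1 -0.30 to 0.65, Sparc -0.35 to 0.40, Thbs1 -0.16 to 1.98, Thbs2 -0.45 to 0.85, Thbs4 -0.19 to 2.02 and Spp1 -1.81 to 0.12. Against normal they were Spp1 -0.18 to 1.40 in acellular 10 mm, Thbs2 -0.28 to 0.93 and Thbs4 -0.93 to 0.053 in acellular 15 mm skin, with Thbs4 -0.46 to 0.80 (10 mm) and Fn1 -0.58 to 0.25 (15 mm) under HDB. Between sizes they were Postn -0.21 to 0.41, Thbs1 -0.63 to 1.52, Thbs2 -0.58 to 0.63, Thbs4 -0.11 to 0.96 and Spp1 -0.57 to 1.23 in acellular, and Tnc -0.23 to 0.31, Thbs2 -0.27 to 0.48 and Spp1 -0.94 to 0.17 in HDB skin.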
